A study of Mus musculus with 70 samples.

Results

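The comparison described here sets liver macrophages of female OpnKI Mye mice on a NASH diet, called KI below, against liver macrophages of female WT mice on the same diet. Its 12 libraries, 6 KI and 6 WT, were chosen by their labels alone, out of 70 libraries in all, and no measured value entered the choice. The whole study sequenced RNA from total liver and from sorted liver macrophages of male and female mice on a control or a NASH (non-alcoholic steatohepatitis) diet. All mice had been on their diet for 24 weeks, and their ages were not given. The cells are labelled as liver resident macrophages sorted as F4/80 high and CD11b low. The genotype label of the KI animals reads OpnKI Mye, a myeloid knock-in of osteopontin, and that of the WT animals reads Lyz2.Cre+/+. By that label the WT animals are Cre carriers and not mice without Cre, which was not tested in the reads. The Lyz2 gene drives Cre in macrophages, monocytes and neutrophils and not in Kupffer cells alone, and the labels do not say how the osteopontin allele was built or whether the KI mice carry Cre. Nothing says whether mice were pooled, so the p-values measure the spread between libraries, part of which may be technical. The 4 KI and 4 WT libraries of female macrophages on the control diet entered the same fit, and thus its estimate of that spread. For context, 5 KI and 5 WT libraries of male macrophages on the NASH diet were also used.

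Osteopontin, encoded by Spp1, is a secreted phosphoprotein that binds integrins and CD44 on leukocytes and matrix-producing cells. In fatty liver it is known as a product of injured bile duct cells, activated stellate cells and the lipid-associated macrophages that gather around dying hepatocytes. Kupffer cells, the resident macrophages of the liver sinusoid, respond to microbial products and to cell debris through NF-kB, which enters the nucleus when its inhibitor IkB-alpha (Nfkbia) is degraded and then switches on cytokine genes such as Tnf and Il1a together with Nfkbia itself. The question put by the design is what extra osteopontin in myeloid cells does to the expression of these cells in steatohepatitis.

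Levels below are in CPM, the deposited gene counts scaled to a common library size with TMM factors. Log2 fold changes are KI minus WT, with their standard error (SE), from edgeR's quasi-likelihood test, and a gene is said to have risen or fallen where its p, adjusted over all genes tested by the Benjamini-Hochberg method, is below 0.05. Between 19389282 and 21659744 reads were counted in the KI libraries, and between 18485924 and 23722522 in the WT libraries. All 12 libraries held Xist, at 14860 to 20142 counts, and none held a read of the 4 Y-linked genes checked. Kupffer cell markers were abundant in all 12: the summed level of 20 Kupffer cell genes was 28000, 41300 and 46600 CPM (lowest, median, highest) in KI and 40200, 45000 and 51200 CPM in WT libraries. The purity of the sort was not tested. The 4 haemoglobin genes of the erythroid list, and Ass1 of the hepatocyte list, are listed at 0 in all 12.

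Lyz2 and Spp1 differed widely between KI libraries. Lyz2, which encodes lysozyme and whose locus drives Cre, lay at 42.2 and 44.1 CPM in the libraries KI 3 and KI 4, between 2029 and 2551 CPM in the other 4 KI libraries, and between 2116 and 2843 CPM in WT libraries. On the control diet 3 of 4 KI libraries (73.9 to 93.2 CPM) and 3 of 4 WT libraries (92.1 to 168 CPM) were low as well. Its log2 fold change over the groups was -0.71 with an adjusted p of 0.777, and values without KI 3 and KI 4, or without KI 5, are given beside the results that these libraries moved most. Spp1 (chr5:104435118-104441050, plus strand, mm10) measured 2.21, 7.19 and 97.1 CPM in KI libraries (lowest, median, highest) and 1.19, 5.40 and 11.8 CPM in WT libraries. The groups overlapped: KI 5 at 97.1 CPM stood far above the rest, KI 1 at 12.9 CPM lay just above the highest WT library, and the other 4 KI libraries lay inside the WT range. The log2 fold change was 2.01 (SE 0.75, adjusted p 0.161), and 0.28 without KI 5. On the control diet Spp1 averaged 1.94 ± 0.45 CPM in KI and 0.101 ± 0.082 CPM in WT libraries (SD, n = 4 each), a log2 fold change of 4.16 with an adjusted p of 0.105. The Spp1 transcript was thus not called higher in KI on the NASH diet, where it averaged 21.6 ± 37.2 CPM in KI and 5.37 ± 3.73 CPM in WT libraries (SD, n = 6 each).

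Of the 10 genes in the list of osteopontin and its receptors none was called on the NASH diet, and 3 had an unadjusted p below 0.05 with a positive fold change (2 without KI 3 and KI 4, when 1 further gene had a negative one, and 2 without KI 5). Itgav, the integrin alpha V chain, had a log2 fold change of 0.39 (adjusted p 0.098), against 0.81 (adjusted p 0.0034) on the control diet. Cd44 had a log2 fold change of -0.29 (adjusted p 0.298).

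**Figure D1:**
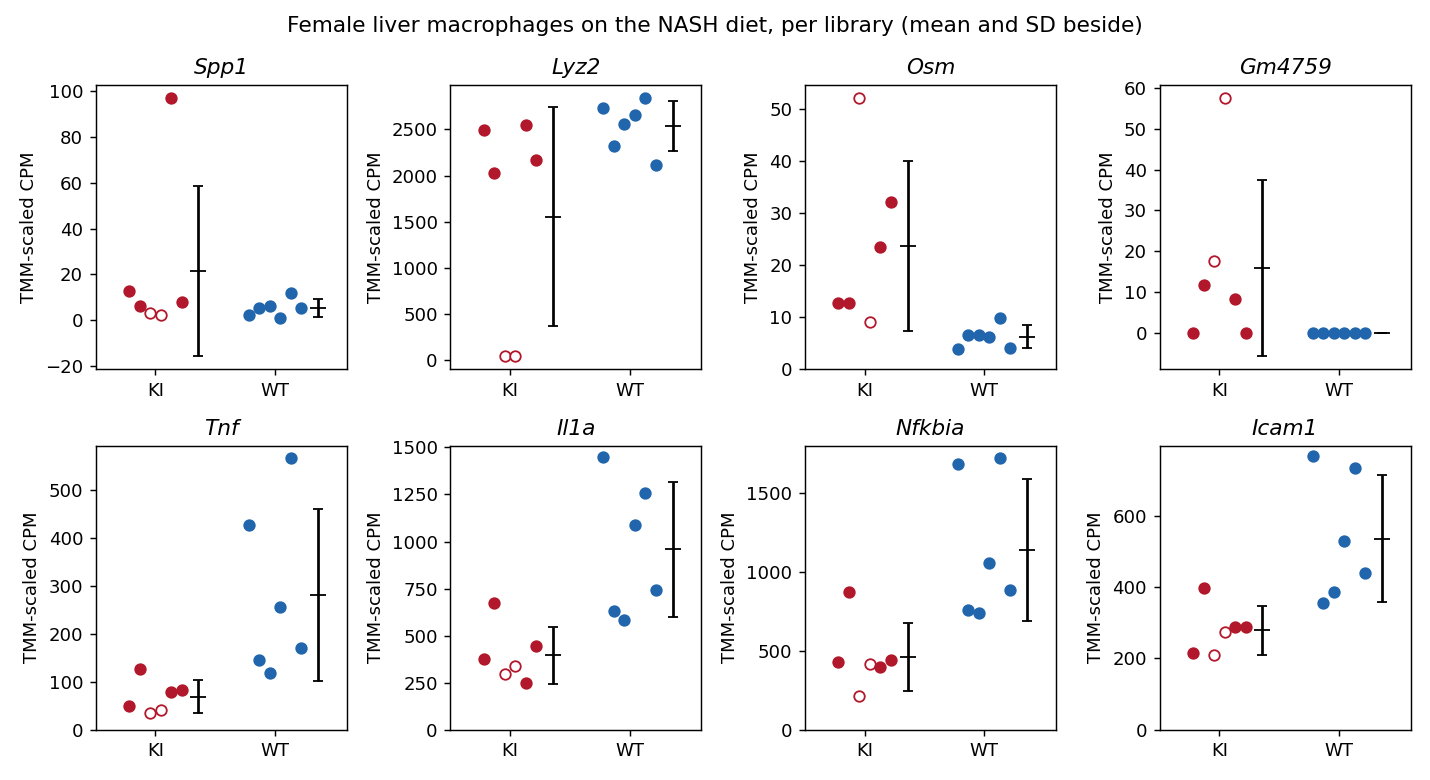
TMM-scaled CPM (linear axes from each panel's own range) of 8 genes in each of the 6 KI (left) and 6 WT (right) libraries of female macrophages on the NASH diet, 1 point a library, with the mean and SD beside them; open symbols are KI 3 and KI 4, the libraries with low Lyz2. Tnf lies between 34.7 and 127 CPM in KI and between 119 and 566 CPM in WT libraries, and Osm between 8.97 and 52.2 CPM in KI and between 3.78 and 9.87 CPM in WT libraries.

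Across the transcriptome 72 of 12838 genes tested changed, 0.561% of them, with 36 higher (0.28%) and 36 lower (0.28%) in KI. With upper-quartile scaling the split was 29 higher and 48 lower. The median log2 fold change of all genes was 0.006. All 72 passed narrowly, with adjusted p-values from 0.0467 to 0.0497, while 2377 genes (18.5%) had an unadjusted p below 0.05. The groups did not overlap for 93 genes, or 0.724% of those tested (0.428% higher and 0.296% lower in KI), and 20 of these were among the 72. The calls are fragile: no gene passed without KI 3 and KI 4 (1638 genes, or 12.8%, with an unadjusted p below 0.05), and none in limma-voom (2314 such genes). None passed in a fit of the 12 NASH libraries alone (2015 such genes), and 532 passed in DESeq2. Leaving out 1 library gave between 0 and 662 calls, with 662 when KI 2 was left out and none when KI 3, KI 4 or any of WT 1, WT 4, WT 5 and WT 6 was, and between 1863 and 2741 genes had an unadjusted p below 0.05 in these fits. The direction of the called genes held in each of these fits that measured them. These fits share most of their libraries with the one that chose the genes, so a kept direction is no separate evidence. Genes and lists that were not called are given below as values, and some list medians changed sign between fits.

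The genes that fell included cytokine and feedback genes of TNF, interleukin 1 and NF-kB signalling. Of the 18 tested members of the list of this pathway, 4 fell (Tnf, Il1a, Nfkbia and Icam1), none rose, and 14 had an unadjusted p below 0.05 with a negative fold change, against 9.13% of all genes. The median log2 fold change of the list was -0.885, beside 0.006 over all genes. Without KI 3 and KI 4, 9 of the 18 had a negative fold change at an unadjusted p below 0.05, none was called, and the median was -0.713. In bulk libraries fewer cells of a type and less RNA per cell cannot be told apart, here and in all that follows.

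Tnf, the central inflammatory cytokine of macrophages (chr17:35199381-35202007, minus strand), measured 34.7, 64.1 and 127 CPM in KI libraries (lowest, median, highest) and 119, 214 and 566 CPM in WT libraries. The log2 fold change was -2.02 (SE 0.38, adjusted p 0.0467), and -1.73 without KI 3 and KI 4. Of the 6 KI libraries 5 lay below every WT library, and KI 2 overlapped the WT range. Il1a, the alarmin form of interleukin 1, measured 247, 358 and 673 CPM in KI and 585, 916 and 1449 CPM in WT libraries, a log2 fold change of -1.28 (SE 0.25, adjusted p 0.0467), and -1.14 without KI 3 and KI 4. Again 5 of the 6 KI libraries were below every WT library and KI 2 was not. Icam1, the adhesion molecule to which leukocyte integrins bind, measured 210, 281 and 397 CPM in KI and 356, 486 and 770 CPM in WT libraries (log2 fold change -0.94, SE 0.20, adjusted p 0.0476, and -0.85 without KI 3 and KI 4), with the same single exception.

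Of the IkB family, Nfkbia and Nfkbiz fell. Nfkbia measured 212, 423 and 872 CPM in KI and 738, 971 and 1725 CPM in WT libraries, a log2 fold change of -1.31 (SE 0.27, adjusted p 0.0476). Nfkbiz, which encodes the nuclear IkB-zeta needed for the induction of Il6 in macrophages, measured 159, 292 and 864 CPM in KI and 588, 897 and 1755 CPM in WT libraries, a log2 fold change of -1.57 (SE 0.35, adjusted p 0.0497). Without KI 3 and KI 4 the log2 fold changes were -1.09 for Nfkbia and -1.28 for Nfkbiz. For both genes KI 2 was again the KI library inside the WT range, at 872 CPM of Nfkbia and 864 CPM of Nfkbiz, while the other 5 lay below every WT library.

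Other members of the list, chosen for mention after their values were seen, missed the threshold. Nlrp3, the inflammasome sensor, averaged 324 ± 199 CPM in KI and 766 ± 292 CPM in WT libraries (SD, n = 6 each), with a log2 fold change of -1.24 and an adjusted p of 0.0523. Il1b averaged 938 ± 248 CPM in KI and 1663 ± 419 CPM in WT libraries, with a log2 fold change of -0.83 and an adjusted p of 0.0842. Tnfaip3, the A20 deubiquitinase that ends NF-kB signalling, had a log2 fold change of -1.43 (adjusted p 0.0845). The receptor Tlr4 (0.25) and the NF-kB subunit Nfkb1 (0.07) had small positive log2 fold changes.

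The promoters of called members are shown because these genes are textbook NF-kB targets that moved together. Each is the window from 250 bases before to 50 bases after the gene's start in RefSeq (GRCm38.p6), printed 5′ to 3′ on the gene's strand, with matches to the kB-like motif GGNNNTTCC or its reverse complement GGAANNNCC in capitals and hits of both forms at the same place counted once. Tnf (chr17:35201958-35202257, minus strand) held 1 match, Nfkbia (chr12:55492598-55492897, minus strand) 3, Icam1 (chr9:21015690-21015989, plus strand) 2 and Il1a (chr2:129309923-129310222, minus strand) 0.
Tnf: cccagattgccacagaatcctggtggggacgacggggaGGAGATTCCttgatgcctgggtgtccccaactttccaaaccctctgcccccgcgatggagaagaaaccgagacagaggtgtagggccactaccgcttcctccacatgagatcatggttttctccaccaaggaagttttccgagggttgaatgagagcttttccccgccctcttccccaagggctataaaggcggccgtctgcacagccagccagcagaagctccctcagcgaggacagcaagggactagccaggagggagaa
Nfkbia: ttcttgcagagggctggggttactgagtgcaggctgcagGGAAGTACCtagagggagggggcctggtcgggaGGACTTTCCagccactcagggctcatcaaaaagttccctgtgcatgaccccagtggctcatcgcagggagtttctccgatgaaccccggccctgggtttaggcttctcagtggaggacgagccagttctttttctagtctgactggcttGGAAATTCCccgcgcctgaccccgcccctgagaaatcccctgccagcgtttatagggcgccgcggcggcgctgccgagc
Icam1: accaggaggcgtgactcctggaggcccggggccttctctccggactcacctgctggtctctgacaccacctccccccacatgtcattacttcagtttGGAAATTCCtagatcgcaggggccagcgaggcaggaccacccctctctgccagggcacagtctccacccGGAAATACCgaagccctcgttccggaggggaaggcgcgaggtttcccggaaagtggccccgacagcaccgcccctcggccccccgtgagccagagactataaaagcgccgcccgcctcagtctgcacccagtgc
Il1a: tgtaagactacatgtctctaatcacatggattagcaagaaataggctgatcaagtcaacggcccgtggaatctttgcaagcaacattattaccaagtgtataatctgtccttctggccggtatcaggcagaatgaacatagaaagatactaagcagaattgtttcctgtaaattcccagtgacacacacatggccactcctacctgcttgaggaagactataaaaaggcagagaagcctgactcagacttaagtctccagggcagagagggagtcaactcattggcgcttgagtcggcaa
A match is a string of letters and not a bound site, and the missing match for Il1a says only that these letters are not in this window. Of all 32851 windows 18.5% held a match. Among genes with a window, the share was 35.0% (14 of 40 windows) for the genes that fell, and 75.0% (15 of 20 windows) for the TNF, interleukin 1 and NF-kB list, beside 21.7% for all tested genes. Of the windows of genes that rose, 6 of 40 held a match. The windows of the genes that fell came from 28 genes. The list holds known NF-kB targets, and 4 of its members are among the genes that fell. Neither share is therefore separate evidence about these libraries.

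**Figure D2:**
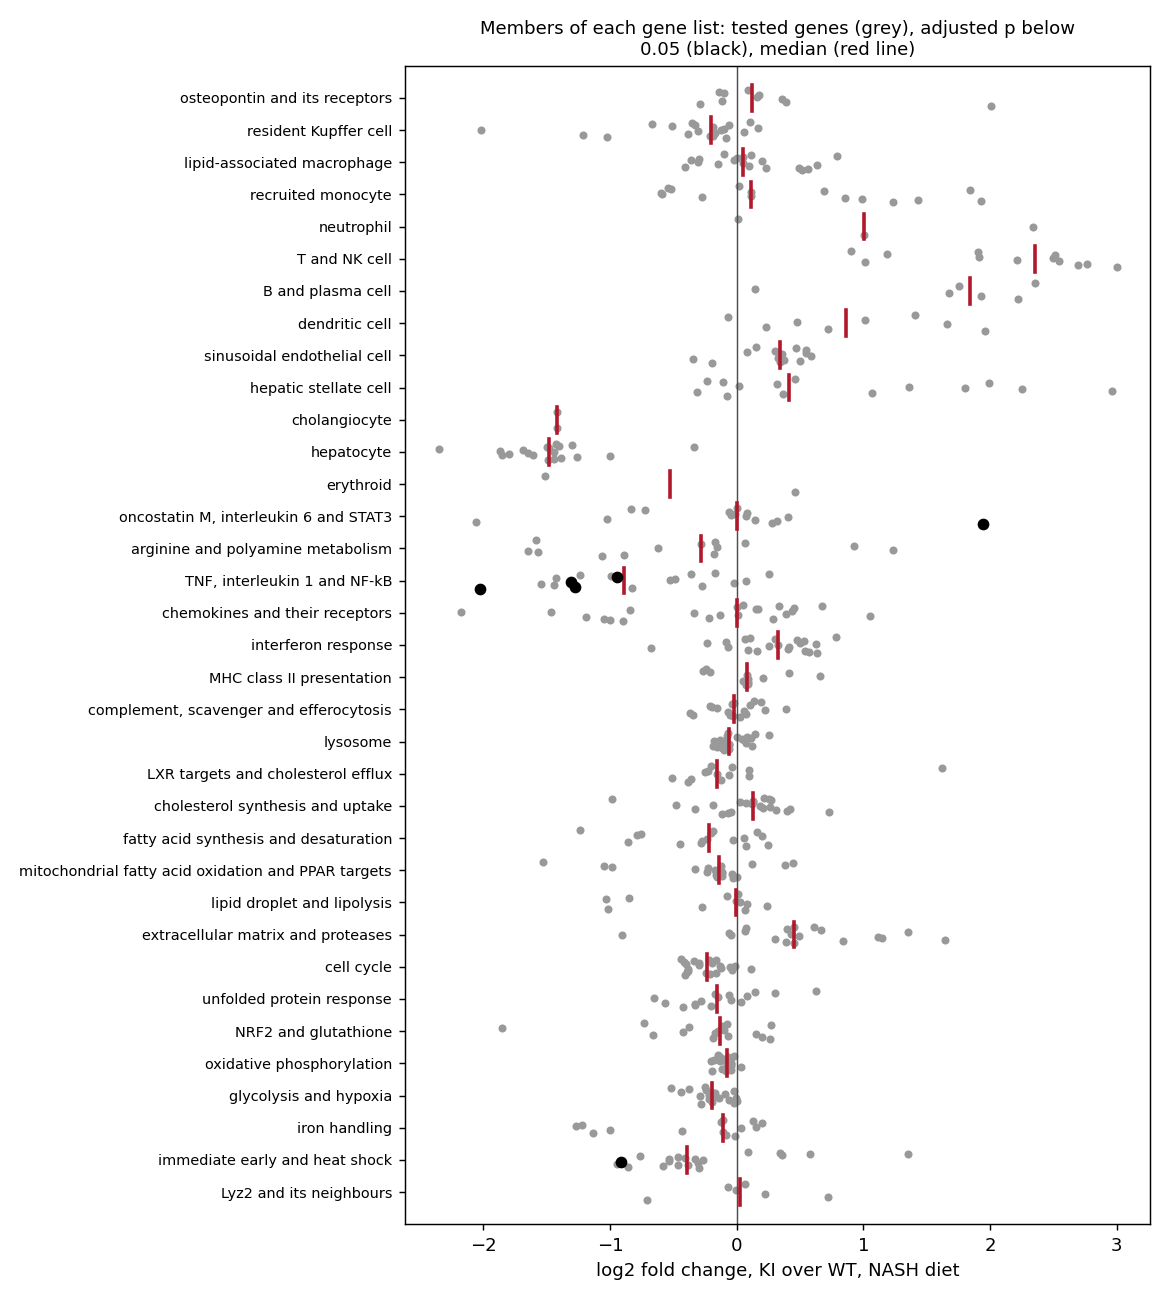
Log2 fold change (KI minus WT, NASH diet, female macrophages) of each tested gene in the lists named on the axis, 1 grey point a gene, black where called, with the list's median as a red line. The TNF, interleukin 1 and NF-kB list has its median at -0.885 and the hepatocyte list at -1.48, while the chemokine list lies around 0.0056.

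Hbegf, Ppp1r15a and Ier2 fell as well. Hbegf, a membrane-shed ligand of the EGF receptor, measured 54.6, 104 and 244 CPM in KI and 199, 295 and 318 CPM in WT libraries (log2 fold change -1.24, SE 0.26, adjusted p 0.0476). Of the KI libraries 5 were below every WT library, and without KI 3 and KI 4 the log2 fold change was -0.95. Ppp1r15a, the GADD34 subunit that restarts translation after stress, measured 332, 496 and 840 CPM in KI and 790, 942 and 1402 CPM in WT libraries (log2 fold change -0.98, adjusted p 0.0467). Hbegf and Ppp1r15a also fell on the control diet, with log2 fold changes of -1.18 (adjusted p 0.042) and -0.84 (adjusted p 0.0398). Ier2, a nuclear protein of the early serum response, was the called member of the immediate early and heat shock list: it measured 202, 307 and 437 CPM in KI and 384, 591 and 805 CPM in WT libraries (log2 fold change -0.91, adjusted p 0.0476). In that list of 20 tested genes 13 had an unadjusted p below 0.05 with a negative fold change and 1 with a positive one, and the median was -0.395. Without KI 3 and KI 4 the counts were 9 and 1 and the median was -0.275. Its summed level was 14200, 20100 and 27700 CPM in KI and 23000, 27000 and 33600 CPM in WT libraries, so the groups overlapped.

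KI and WT libraries did not overlap for 20 of the 72 genes, 7 lower and 13 higher in KI, beside 0.724% of all genes tested. Choosing genes by their p favours such a gap. Slc2a6 and Gtf2b are among the 7. Slc2a6, a sugar transporter of leukocytes, measured 16.3, 23.6 and 31.1 CPM in KI and 36.3, 48.4 and 67.8 CPM in WT libraries, a log2 fold change of -1.09 (SE 0.21, adjusted p 0.0467) that was the same without KI 3 and KI 4. Its log2 fold change was 0.02 (adjusted p 0.981) on the control diet and 0.00 (adjusted p 0.997) in males, though neither difference between comparisons was called. Gtf2b, the general transcription factor TFIIB, measured 32.0, 38.8 and 58.4 CPM in KI and 58.7, 69.5 and 78.6 CPM in WT libraries (log2 fold change -0.74, SE 0.12, adjusted p 0.0467). Marcksl1, an actin-regulating relative of MARCKS, measured 154, 219 and 305 CPM in KI and 277, 407 and 715 CPM in WT libraries (log2 fold change -1.11, adjusted p 0.0467), with 5 of the 6 KI libraries below every WT library.

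None of the 22 tested genes in the list of chemokines and their receptors was called. The chemokine receptor Cxcr6, which is not in the list and was chosen for mention after its values were seen, was called higher at low levels: it measured 0.0922, 0.837 and 1.86 CPM in KI and 0, 0.0746 and 0.255 CPM in WT libraries, with an adjusted p of 0.048. With 109 counts in KI and 11 in WT libraries, Cxcr6 passed the filter on low counts through KI libraries. It was too low to be tested without KI 3 and KI 4 or without KI 5, so its call carries little weight. Among listed genes the neutrophil attractants came closest: Cxcl1 averaged 35.2 ± 38.6 CPM in KI and 159 ± 92.0 CPM in WT libraries (SD, n = 6 each; log2 fold change -2.18, adjusted p 0.0732), and Cxcl2 averaged 343 ± 241 CPM in KI and 948 ± 405 CPM in WT libraries (log2 fold change -1.47, adjusted p 0.0799). KI 2 was the highest KI library for both, at 112 CPM of Cxcl1 and 764 CPM of Cxcl2. Of the list 8 members had an unadjusted p below 0.05 with a negative fold change and 1 with a positive one, and its median was 0.0056, but -0.0536 without KI 3 and KI 4 and -0.0809 without KI 5.

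**Figure D3:**
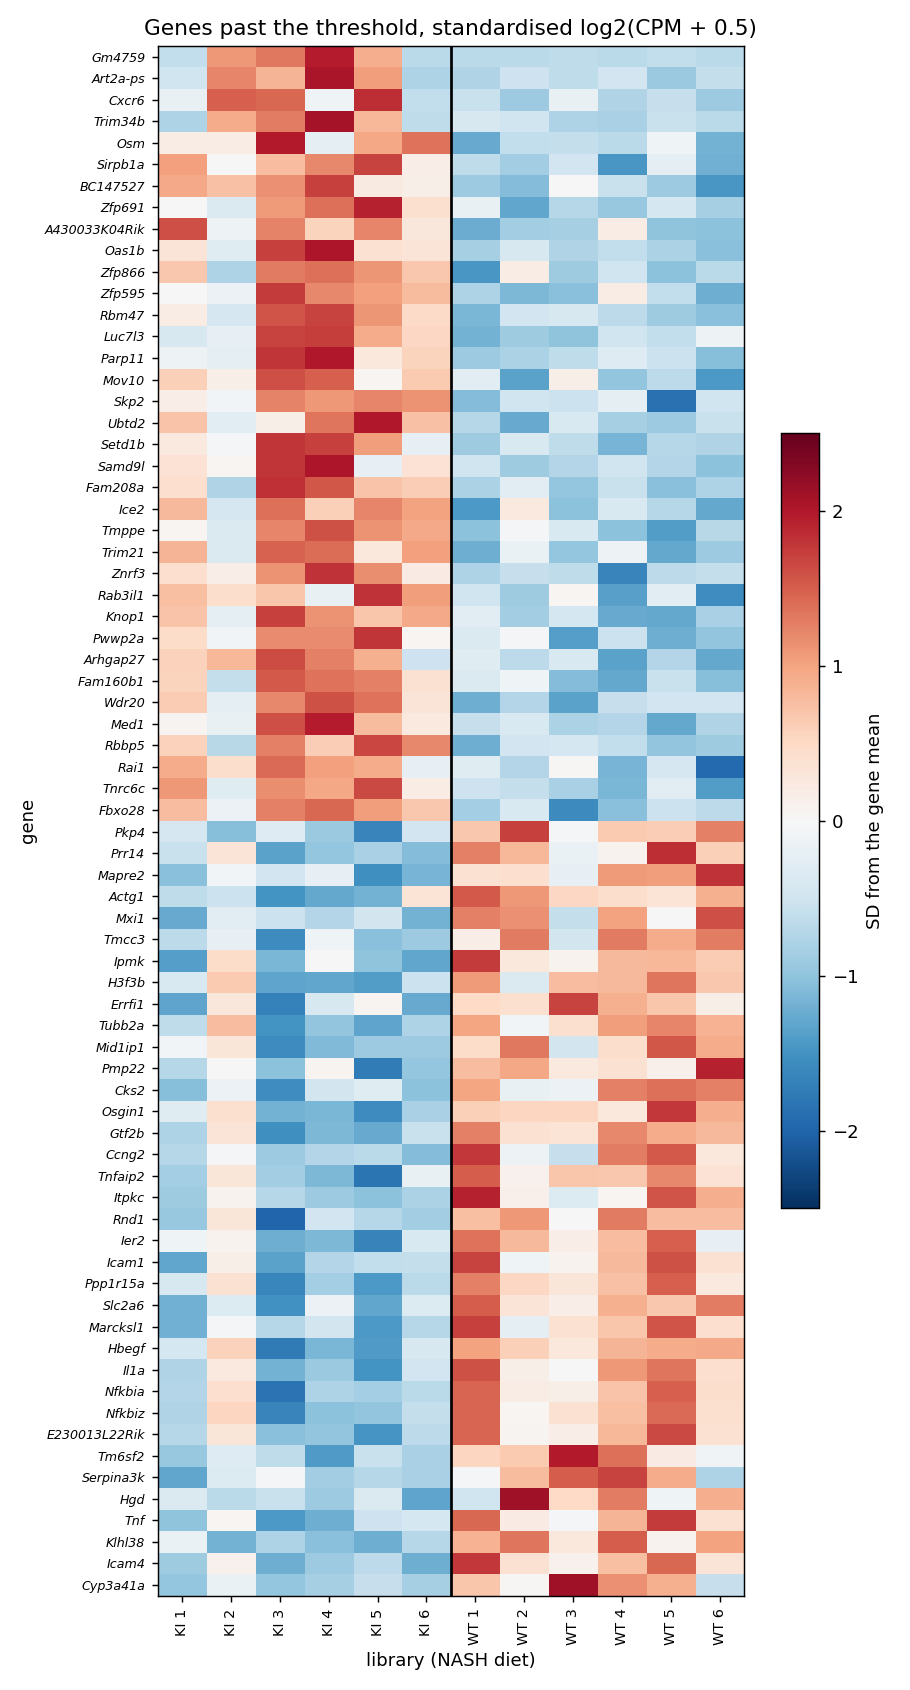
Levels of the 72 genes that changed (rows, ordered by fold change) in the 6 KI (left) and 6 WT (right) libraries, as the distance of log2 CPM from the gene's mean over the 12 libraries in SD; red is above and blue below that mean. KI 2 stands nearer to the WT libraries than other KI libraries do for Nfkbia (872 CPM) and Nfkbiz (864 CPM), and KI 3 and KI 4 are the highest for Oas1b (14.4 and 16.2 CPM) and Parp11 (49.6 and 53.1 CPM).

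Among the genes that rose, Osm and Trim34b were called higher in each of the 3 KI comparisons of macrophages made here. Male macrophages on the control diet were not compared. Osm encodes oncostatin M, an interleukin 6 family cytokine of myeloid cells that acts on hepatocytes, endothelium and stellate cells (chr11:4236420-4241026, plus strand). Osm measured 8.97, 18.1 and 52.2 CPM in KI and 3.78, 6.38 and 9.87 CPM in WT libraries on the NASH diet. KI 3 was the highest, and KI 4 was the KI library inside the WT range. The log2 fold change was 1.94 (SE 0.37, adjusted p 0.0467), and 1.72 without KI 3 and KI 4. On the control diet Osm averaged 5.32 ± 2.18 CPM in KI and 0.252 ± 0.069 CPM in WT libraries (SD, n = 4 each; log2 fold change 4.41, adjusted p 0.000756). In male NASH libraries it averaged 41.7 ± 10.9 CPM in KI and 9.87 ± 8.61 CPM in WT libraries (SD, n = 5 each), a log2 fold change of 2.08 with an adjusted p of 0.0102. The difference between the diets (-2.47, adjusted p 0.222) and that between the sexes (adjusted p 0.959) were not called.

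In the oncostatin M, interleukin 6 and STAT3 list no other gene was called. Of its 15 tested members Osm alone was called, and the median log2 fold change was 0.005 (-0.0139 without KI 3 and KI 4). Il6 averaged 14.9 ± 14.5 CPM in KI and 61.6 ± 38.6 CPM in WT libraries (SD, n = 6 each), a log2 fold change of -2.05 with an adjusted p of 0.0689. The feedback inhibitor Socs3 (-0.73), the receptor chain Osmr (0.28) and the transcription factor Stat3 (-0.06) were not called.

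Of the genes that rose, 4 lay near each other on chromosome 7 (Art2a-ps, Gm4759, Trim21 and Trim34b). They lay between 101552453 and 106424469 (mm10), which was noticed after the values were seen. The ends of this window were set by the called genes themselves, and 43 genes were tested in it. Of all called genes, in either direction, 8 lay on chromosome 7 and 12 on chromosome 11. Whether the 4 genes lie closer together than chance would place them was not tested. Gm4759, an unnamed gene model, measured 11.6, 17.6, 57.6 and 8.22 CPM in KI 2 to KI 5, but 0.0497 CPM in KI 1 and 0 in KI 6, and at most 0.0525 CPM in WT libraries. Its fitted fold change rests on WT libraries at or near 0 and is not given. Trim34b, of a family of ubiquitin ligases, measured 3.86, 5.54, 12.1 and 3.47 CPM in KI 2 to KI 5, 0.397 CPM in KI 1 and 0.507 CPM in KI 6, and between 0.354 and 0.756 CPM in WT libraries (log2 fold change 3.02, SE 0.68, adjusted p 0.0483, and 1.95 without KI 3 and KI 4). Art2a-ps, a pseudogene of an ADP-ribosyltransferase, lay between 5.68 and 30.8 CPM in KI 2 to KI 5, at 0.497 CPM in KI 1 and 0.184 CPM in KI 6, and between 0.0525 and 0.53 CPM in WT libraries. For these 3 genes the KI group was split the same way, with KI 2 to KI 5 high and KI 1 and KI 6 at the WT level. Trim21, a cytosolic antibody receptor, was not split so: it measured 23.8, 30.8 and 34.4 CPM in KI and 19.7, 21.1 and 24.9 CPM in WT libraries (log2 fold change 0.46, adjusted p 0.0476). Gm4759 and Trim34b also rose on the control diet (adjusted p 0.0178 and 0.0495). Trim34b and Art2a-ps have near-identical copies, and how reads were shared between copies is not given in the sources used here.

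Oas1b, Parp11, Mov10 and Samd9l rose too, and none of them is in a list. Oas1b, of the oligoadenylate synthetase family, measured 6.79, 8.71 and 16.2 CPM in KI and 5.09, 5.66 and 6.52 CPM in WT libraries, with no overlap (log2 fold change 0.88, SE 0.19, adjusted p 0.0476). Parp11, a mono-ADP-ribosyltransferase, measured 26.3, 32.2 and 53.1 CPM in KI and 20.1, 22.5 and 25.5 CPM in WT libraries, again with no overlap (log2 fold change 0.70, adjusted p 0.0476). KI 3 and KI 4 were the highest for both, and without them the log2 fold changes were 0.52 for Oas1b and 0.39 for Parp11. Mov10, an RNA helicase that restrains retroelements, had a log2 fold change of 0.64 (adjusted p 0.0467) and 0.45 without KI 3 and KI 4. Samd9l, an interferon-induced inhibitor of translation chosen for mention after its values were seen, averaged 177 ± 40.4 CPM in KI and 124 ± 6.11 CPM in WT libraries (SD, n = 6 each; log2 fold change 0.52, adjusted p 0.0476, and 0.30 without KI 3 and KI 4).

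The interferon response list as fixed did not show a called change. Of its 21 tested members none was called, 9 had an unadjusted p below 0.05 with a positive fold change, against 9.39% of all genes, and 1 with a negative one, and the median log2 fold change was 0.331. Irf1, the regulatory factor shared with NF-kB signalling, was that 1 gene (log2 fold change -0.68, adjusted p 0.0689). The counts of this list depended on single libraries: without KI 5 there were 13 members with a positive fold change at an unadjusted p below 0.05 and 7 called. In that fit 17.0% of all genes had such a p in either direction, and 234 of 12766 genes were called. Without KI 3 and KI 4 there were 2 members with a positive fold change at such a p, none called, and a median of 0.161. With the hepatocyte level of each library as a covariate, an alternative described below, there were also 2 such members, none called, and a median of 0.194.

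The RNA-binding and splicing factors Rbm47 and Luc7l3 rose on both diets. Rbm47 measured 47.1, 68.3 and 89.7 CPM in KI and 37.5, 42.3 and 47.4 CPM in WT libraries on the NASH diet (log2 fold change 0.71, SE 0.13, adjusted p 0.0467, and 0.50 without KI 3 and KI 4), with a log2 fold change of 0.87 (adjusted p 0.00447) on the control diet. Luc7l3 measured 42.8, 61.5 and 84.8 CPM in KI and 33.2, 38.2 and 46.6 CPM in WT libraries (log2 fold change 0.71, adjusted p 0.0476), with 1.02 (adjusted p 0.00405) on the control diet and 0.45 on the NASH diet without KI 3 and KI 4. Skp2, the F-box protein that marks p27 for degradation, measured between 11.3 and 16.0 CPM in KI and between 6.93 and 10.8 CPM in WT libraries without overlap (log2 fold change 0.61, adjusted p 0.0467). Sirpb1a, of a family of paired myeloid receptors with near-identical members among which reads may be split, measured 4.32, 6.79 and 10.1 CPM in KI and 1.95, 2.90 and 3.83 CPM in WT libraries (log2 fold change 1.24, adjusted p 0.0476), and it rose on the control diet too (1.29, adjusted p 0.0378).

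Genes of other liver cells moved beside these results, and their part in them was not tested unless a value is given. Hepatocyte genes had lower values in KI without being called: none of 19 tested was called, all 19 had an unadjusted p below 0.05 with a negative fold change, and the median log2 fold change was -1.48. Without KI 3 and KI 4 there were 7 such genes, none called, and a median of -1.22. Without KI 5, where 234 of 12766 genes were called, all 19 had such a p, 9 were called and the median was -2.08. Their sum was 939, 1220 and 2060 CPM in KI and 1440, 2090 and 3780 CPM in WT libraries. Alb measured 43.3, 129 and 429 CPM in KI and 155, 433 and 1274 CPM in WT libraries. Among the called genes Hgd, an enzyme of tyrosine breakdown in hepatocytes, had a log2 fold change of -1.83 (adjusted p 0.0476), and Serpina3k, a liver serine protease inhibitor of a multigene family, one of -1.74 (adjusted p 0.0476). With the summed hepatocyte level of each library as a covariate, which was added after the data were seen, 159 of 12838 genes were called. In that fit 16.0% of all genes had an unadjusted p below 0.05, and Tnf had a log2 fold change of -2.13 and Osm one of 2.12. The TNF, interleukin 1 and NF-kB list then had 4 called members, 13 of 18 with a negative fold change at such a p and a median of -0.846. The covariate is the summed level of the hepatocyte list itself. That list's own values in this fit (none with such a p, median -0.358) were therefore bound to shrink and decide nothing.

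Markers of lymphocytes were at low levels, with higher values in KI. Several lay near 0 in WT libraries (Cd3e between 0 and 0.51 CPM) and passed the filter on low counts mostly through KI libraries. Of the T and NK cell list 12 genes were tested, but 10 without KI 3 and KI 4 and 11 without KI 5. The one-sided counts of this list were thus partly fixed by the filter. Of 12 tested T and NK cell genes 10 had an unadjusted p below 0.05 with a positive fold change, none was called, and the KI libraries summed to 6.95, at the lowest, and 32.0 CPM, at the highest, while the WT libraries summed to between 2.48 and 9.61 CPM. With the hepatocyte covariate all 12 had an unadjusted p below 0.05, 7 were called higher, and the median was 3.64, beside 2.35 without the covariate. The highest sum was in KI 5, which also had the lowest sum of Kupffer cell genes (28000 CPM), the highest sum of stellate cell genes (577 CPM) and the highest Spp1. The stellate cell genes summed to between 215 and 410 CPM in the other 5 KI libraries and to between 215 and 317 CPM in the WT libraries. Of 14 tested, 6 had an unadjusted p below 0.05 with a positive fold change, and the median was 0.413. Without KI 5 there were 2 such genes and a median of 0.219, and with the hepatocyte covariate there were 7, of which 3 were called, and a median of 0.71. Sinusoidal endothelial genes summed to between 766 and 3130 CPM in the KI libraries and to between 935 and 1920 CPM in the WT libraries, with none of 15 at an unadjusted p below 0.05 (1 without KI 3 and KI 4).

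**Figure D4:**
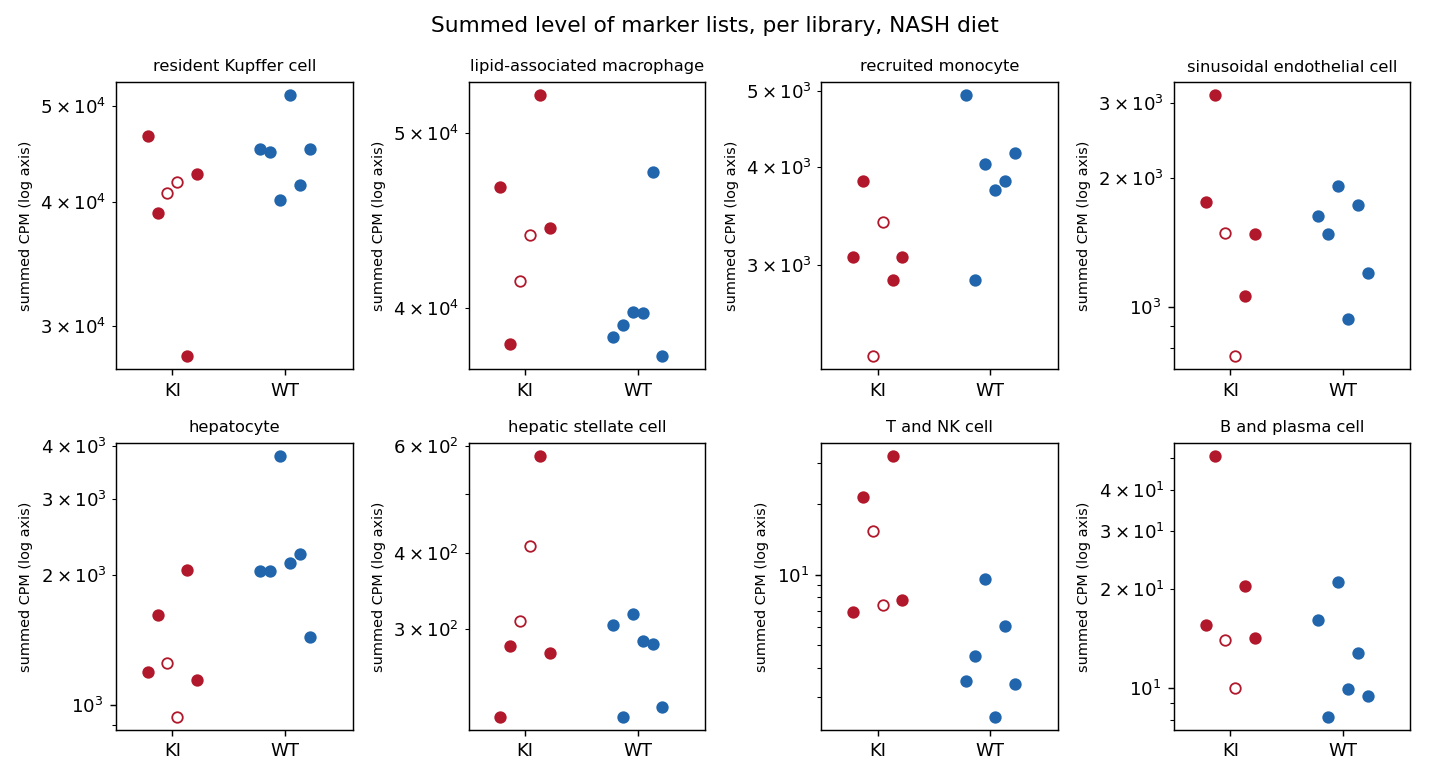
Summed TMM-scaled CPM (log axis) of marker lists in each KI (left) and WT (right) library, 1 point a library; open symbols are KI 3 and KI 4. The hepatocyte sum lies between 939 and 2060 CPM in KI and between 1440 and 3780 CPM in WT libraries, and the T and NK cell sum between 6.95 and 32.0 CPM in KI and between 2.48 and 9.61 CPM in WT libraries.

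Macrophage identity genes showed no called change. Clec4f, a lectin restricted to Kupffer cells in the mouse, measured 5369, 9717 and 10560 CPM in KI and 8288, 9199 and 11800 CPM in WT libraries, and KI 5 was the lowest. Of the 20 Kupffer cell genes 6 had an unadjusted p below 0.05 with a negative fold change and none with a positive one. The median log2 fold change was -0.20 (-0.127 without KI 5), with members from -2.02 to 0.167. With the hepatocyte covariate 11 had such a p with a negative fold change, none was called, and the median was -0.344. The phosphatidylserine receptor Timd4, which marks long-lived Kupffer cells, had a log2 fold change of -1.02 (adjusted p 0.116). Among 19 lipid-associated macrophage genes the median log2 fold change was 0.053, with Trem2 at 0.52, none called and none at an unadjusted p below 0.05 with a positive fold change. Without KI 3 and KI 4 the median was 0.303 with 5 such genes and Trem2 at 0.81, and without KI 5 it was -0.0218 with Trem2 at 0.28. Among 15 genes of recruited monocytes 6 had an unadjusted p below 0.05 with a positive fold change and 2 with a negative one, with the chemokine receptors Ccr2 at 1.23 and Cx3cr1 at 1.43 (adjusted p 0.0937), and the median was 0.117. Without KI 5 the counts were 3 positive and 4 negative, with 1 gene called, Ccr2 at 0.70, Cx3cr1 at 0.87 and a median of 0.311, and without KI 3 and KI 4 the median was -0.0765.

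Metabolic and cell cycle lists gave no called gene. Oxidative phosphorylation genes were negative for 24 of 25, against 48.5% of all genes, with a median log2 fold change of -0.0755, and glycolysis genes for 19 of 20 with a median of -0.19. Without KI 3 and KI 4 these medians were -0.0283 and -0.0525. Cell cycle genes were negative for 21 of 22 with a median of -0.23, against -0.869 for the same list on the control diet, where 21 of the 22 had an unadjusted p below 0.05. On the NASH diet that median was -0.0366 without KI 3 and KI 4, -0.355 without KI 5 and 0.0414 with the hepatocyte covariate, so its direction was not stable. The transferrin receptor Tfrc had a log2 fold change of -1.13 (adjusted p 0.0689).

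On the control diet 596 genes changed (4.64%, with 2.73% higher and 1.91% lower in KI). None of the 72 genes had a called difference between the diets, beside 0.288% of all genes, so this count says little. Of the 72, 66 had the same sign on the control diet (91.7%, against 66.2% of all genes), and 19 were called there. The genes that rose had a median log2 fold change of 0.521 on the NASH diet and 0.424 on the control diet. Those that fell had medians of -0.901 and -0.419. The 72 genes were chosen by their p on the NASH diet, which favours larger medians there. For the TNF, interleukin 1 and NF-kB list the medians were -0.885 on the NASH diet and -0.204 on the control diet, where no member was called. In all 37 genes (0.288%, with 0.195% positive and 0.0935% negative) had a called difference between the diets, and the named ones differed through the control diet: Lrat, the retinol-esterifying enzyme of stellate cells, had a log2 fold change of -0.08 on the NASH diet and -2.63 on the control diet (difference 2.56, adjusted p 0.00802). Gdf3, a TGF-beta family ligand, averaged 128 ± 28.2 CPM in KI and 72.3 ± 26.8 CPM in WT libraries on the NASH diet (SD, n = 6 each). On the control diet it averaged 78.7 ± 45.2 CPM in KI and 1.24 ± 0.259 CPM in WT libraries (SD, n = 4 each; difference -5.16, adjusted p 8.59e-05). Of 14 stellate cell genes 3 had a called difference (Lrat, Colec11 and Dcn), with fold changes from -2.11 to -2.63 on the control diet and from -0.23 to 0.37 on the NASH diet.

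**Figure D5:**
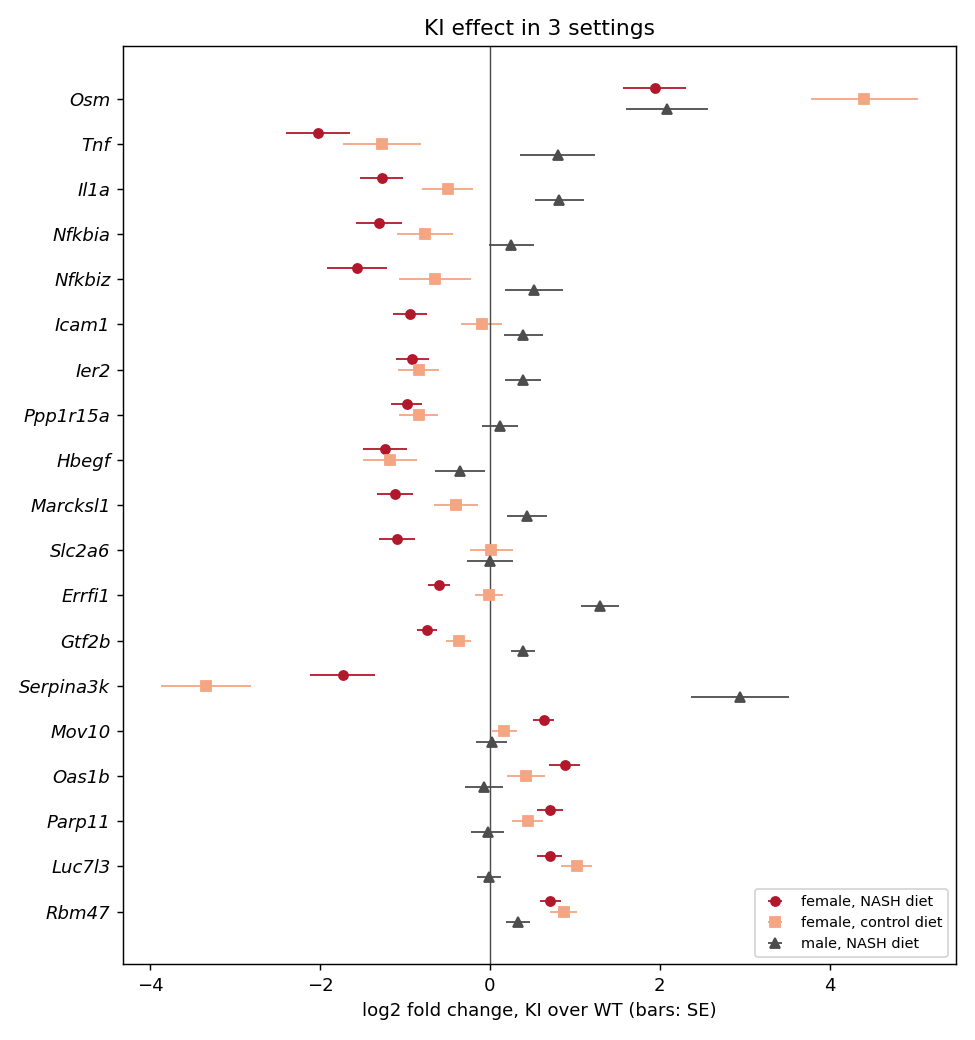
Log2 fold change (KI minus WT) of named genes that changed on the NASH diet in females, with their values on the control diet in females and on the NASH diet in males; bars are SE. Osm is positive in all 3 (1.94, 4.41 and 2.08), and Tnf is negative in both female comparisons (-2.02 and -1.27) and positive in males (0.80, adjusted p 0.308).

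In males on the same diet 756 of 12835 genes changed between KI and WT (5.89%, with 3.58% higher and 2.31% lower in KI), and the difference of the KI effect between the sexes, female minus male, was called for 584 of 13373 genes (4.37%), 529 of them lower (3.96%) and 55 higher (0.411%) in females. The library labelled male WT control 4, which entered this fit, had sex genes against its label, and without it 588 differences were called. The 72 genes were chosen in the female libraries that also enter this difference. That choice favours a large difference, so their values and counts below are no separate evidence for one. Of the 36 genes that fell in females, 7 had a negative log2 fold change in males, the median there was 0.198, and 23 had a called difference. Tnf had a log2 fold change of -2.02 in females and 0.80 in males (difference -2.82), and Il1a one of -1.28 in females and 0.82 in males (difference -2.10). Nfkbia, Nfkbiz and Icam1 had differences of -1.56, -2.09 and -1.34. Of the NF-kB list 9 members were called lower in females than in males, and the male median was 0.341. Of the 36 genes that rose in females, 27 had a positive fold change in males, 2 were called there (Osm and Trim34b), and 3 had a called difference. Hepatocyte genes differed the same way: their median log2 fold change was -1.48 in females and 2.85 in males, where 18 of 19 were called higher in KI, and 18 had a called difference. The part of hepatocyte RNA in the difference between the sexes was not tested.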

How the data were processed

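The deposited table holds whole-number read counts per gene, made by the authors on mm10 (build per the submitters' processing notes). Libraries were made with a stranded mRNA kit, per the labels' protocols. No label or header names the aligner, the counter or its strand setting, so overlapping and antisense genes cannot be told apart. Counts of the 20 female macrophage libraries were filtered (edgeR 4.0.16 filterByExpr, minimum count 10, minimum total 15), scaled by TMM and fitted by edgeR's quasi-likelihood test in R 4.3.3 with 1 mean per group. The comparison of the sexes used 38 macrophage libraries of both sexes. DESeq2 1.42.0 and limma 3.58.1 were alternatives. The pipeline was tested on simulated data. Replicates differed beyond sampling noise in all 74 pairs (mean chi-square per gene 2.05 to 11.9). Scaling alternatives moved the median log2 fold change by less than 0.02. The library groups came from the labels. Members and gene lists were chosen with earlier results of these data known. Named genes were Spp1, its receptors and Lyz2, the 12 largest changes in each direction with a mean of at least 5 CPM, up to 4 called (or 3 lowest-p) members of each list, 5 genes in each direction of the diet and sex differences, and defining markers. Of these, 1 gene of the sex difference is not reported here.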

Additional observations from a re-analysis of the deposited data

Results flagged for a closer look

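Single libraries stood apart from their group, by Dixon's test at the 95% level, in 5 of the 72 groups of values tested, where chance flags about 1 in 20 groups. KI 2 stood above the other KI libraries for Nfkbia (872 CPM, the nearest at 442 CPM), for Nfkbiz (864 CPM, the nearest at 359 CPM) and for E230013L22Rik (16.4 CPM, the nearest at 8.2 CPM). KI 4 stood above the others for Gm4759 (57.6 CPM, the nearest at 17.6 CPM), and KI 5 for Spp1 (97.1 CPM, the nearest at 12.9 CPM).

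The KI effect differed between the diets (NASH minus control, log2, edgeR's quasi-likelihood test) by 3.96 for Igfbp3, 2.56 for Lrat, 2.4 for Tmem56, 2.35 for Cxcl12 and 2.16 for Colec11. It differed in the other direction by -5.16 for Gdf3, -2.61 for Ldlrad3, -2.14 for Nr4a2, -1.56 for Tspan13 and -0.476 for Ubp1.

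The KI effect differed between the sexes on the NASH diet (female minus male, log2, edgeR's quasi-likelihood test) by -4.84 for Fgb, -4.84 for Fgg and -4.69 for Serpina3k, which are genes of hepatocytes, by -1.9 for Errfi1, an inhibitor of the EGF receptor, and by -1.13 for Gtf2b. It was higher in females by 0.918 for Ppargc1b, 0.883 for Zfp202, 0.693 for Slamf6 and 0.309 for E2f4.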

How the results depend on the processing

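The number of called genes moved with nearly every choice, while the direction of the 72 genes did not in any alternative that measured them. The 72 calls became 21 with RLE scaling, 0 with no filter on low counts (2799 genes with an unadjusted p below 0.05), 0 in limma-voom (2314 such genes), 0 with only the 12 NASH libraries (2015), 0 without KI 3 and KI 4 (1638), and 532 in DESeq2. Alternatives added after the data were seen gave 159 with the hepatocyte level as a covariate, 40 with a robust spread and 0 without KI 3, KI 4 and KI 5 (1293 genes with an unadjusted p below 0.05). Leaving out 1 library gave 0 to 662 calls in edgeR. The 37 called differences between the diets became 23 with no filter, 10 without KI 3 and KI 4, 148 in DESeq2, 1 in limma-voom and 5 to 55 with 1 library left out. The 584 called differences between the sexes became 385 to 834 with 1 library left out. The cause of these moves was not tested.

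The same numbers in KI and WT do not mark shared animals in the labels, and the deviations of same-numbered libraries correlated at -0.19 to 0.524, with 3 of 6 pairs over 0.1 and 2 of 6 libraries closest to their own number. With the replicate block the calls were 6 on the NASH diet and 10 for the difference between the diets.

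With 6 libraries a group and calls just under the threshold, a gene outside the 72 cannot be read as unchanged. The depth sets a floor of 3 counts, 0.127 to 0.162 CPM, below which a level cannot be told from 0.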
